A study of Mus musculus with 16 samples.

Results

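Aminoacyl-tRNA synthetases were examined in RNA-seq of mouse interscapular brown fat, the heat-producing fat depot between the shoulder blades. The members were the genes of the count table whose Ensembl identifier maps to one of 36 synthetase symbols, 20 cytosolic and 16 mitochondrial, of 38924 genes in the table. All 36 were among the 14103 genes with enough counts to be tested, and no member had fewer than 84 reads in any of the 16 libraries. Symbols that end in 2 belong to the mitochondrial enzymes, and Mars1 is the newer symbol of the cytosolic methionine enzyme.

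All mice were C57BL/6J and 13 weeks old at the end, after 4 weeks at the assigned temperature from 9 weeks of age. The 4 groups were KO at 22 °C, WT littermates at 22 °C, KO at 30 °C and WT littermates at 30 °C, with 4 libraries each, where 22 °C is a mild cold load for a mouse and 30 °C is thermoneutral. In KO mice Akt2, a kinase gene that acts downstream of the insulin receptor, was deleted with UCP1-CreER, a tamoxifen-inducible Cre under the Ucp1 promoter, and the labels used here do not give how or when Cre was induced. That promoter acts in brown adipocytes, whereas RNA came from the whole depot, so cells that do not use it would keep Akt2, and fewer cells of a type cannot be told apart from less RNA per cell. Whether each numbered library is another animal is not said in the labels, and the p-values then reflect only how much these libraries vary, which may be technical.

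Aminoacyl-tRNA synthetases join each amino acid to its tRNA, the step that fixes the meaning of the genetic code. Mammals keep separate sets of nuclear genes for the cytosol and for mitochondria, where the enzymes charge the tRNAs that read the mitochondrially encoded subunits of the respiratory chain. Gars and Kars each encode both a cytosolic and a mitochondrial form, and glutaminyl-tRNA in mitochondria is made from glutamate charged by EARS2 and then amidated by the GatCAB enzyme. Many cytosolic synthetase genes are known targets of ATF4, the transcription factor of the amino acid response, which binds composite C/EBP-ATF sites.

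Promoter windows with the composite site are shown because ATF4 is a known regulator of cytosolic members, and so that the matches can be set beside the temperature values of those genes. RefSeq promoters (GRCm38.p6), from 250 bases before to 50 bases after the transcription start, were used for 27 members, 13 cytosolic and 14 mitochondrial. The letters TGATGNAAT (the amino acid response element core) or TTGCATCA (a C/EBP-ATF core) were searched on both strands, and the reverse complement of the second, TGATGCAA, can overlap the first. Capitals mark the match, with 16 bases on each side, read 5′ to 3′ along the gene.
Aars, chr8:111033713-111033753, plus strand: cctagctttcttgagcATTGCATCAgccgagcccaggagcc
Gars, chr6:55037954-55037994, plus strand: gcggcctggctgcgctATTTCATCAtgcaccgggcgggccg
Iars, chr13:49682120-49682160, plus strand: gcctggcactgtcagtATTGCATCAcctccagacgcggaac
Tars, chr15:11399650-11399689, minus strand: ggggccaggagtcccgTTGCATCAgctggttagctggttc
Yars, chr4:129189890-129189929, plus strand: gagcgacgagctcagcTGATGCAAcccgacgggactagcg

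The first set of letters was in 3 of 13 cytosolic promoters (Aars, Gars and Iars), in 0 of 14 mitochondrial ones and in 0.965% of the 32851 promoters of the table. The second was in 4 of 13 cytosolic promoters (Aars, Iars, Tars and Yars), in 0 of 14 mitochondrial ones and in 0.895% of all promoters. In Aars and Iars both matches cover the same bases. The match began 113 bases before the start in Aars, 31 before it in Gars and 15 before it in Tars, and it lay 6 bases past the start in Iars and 3 past it in Yars. The NRF1 letters GCGCNTGCG, named for a regulator of nuclear genes for mitochondria, were in 6 cytosolic and 4 mitochondrial promoters and in 6.31% of all. The GABP letters CCGGAAGT were in 2 and 1 (3.89% of all), the E-box CACGTG was in 4 and 1 (7.15% of all), and the CRE letters TGACGTCA were in 0 and 0 (1.79% of all). These are matches of letters within a window and not measured binding.

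The promoter of Cars2, the member with the largest temperature difference in both genotypes, held none of the 6 searched sets of letters and is shown whole for comparison, with no base in capitals.
Cars2, chr8:11550722-11551021, minus strand: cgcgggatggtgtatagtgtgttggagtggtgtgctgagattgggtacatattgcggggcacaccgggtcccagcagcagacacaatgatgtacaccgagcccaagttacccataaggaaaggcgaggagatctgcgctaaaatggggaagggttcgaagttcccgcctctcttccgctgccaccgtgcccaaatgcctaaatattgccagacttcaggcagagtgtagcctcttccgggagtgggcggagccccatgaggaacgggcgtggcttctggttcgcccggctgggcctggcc

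Total counts per library lay between 15117483 and 16871456 in KO at 22 °C, between 14563657 and 23866743 in WT at 22 °C, between 12751528 and 17020621 in KO at 30 °C and between 15303069 and 16022550 in WT at 30 °C. Levels are counts scaled to the TMM-adjusted library size, in CPM, so that libraries of unequal depth share a scale. The TMM factors ranged from 0.954 to 0.999 in KO and from 0.851 to 0.928 in WT at 22 °C. At 30 °C these factors were higher, from 1.03 to 1.08 in KO and from 1.07 to 1.10 in WT. Akt2 averaged 82.2 ± 6.03 CPM in KO and 232 ± 19.8 CPM in WT at 22 °C, and 69.4 ± 10.7 CPM in KO and 204 ± 12.9 CPM in WT at 30 °C (SD, n = 4 each), with no overlap between genotypes. Ucp1, which marks brown adipocytes, averaged 7165 ± 1977 CPM in KO and 6178 ± 2462 CPM in WT at 22 °C, and 1786 ± 212 CPM in KO and 1518 ± 92.2 CPM in WT at 30 °C. Skeletal muscle markers took over 0.1% of counts in 4 libraries, namely KO at 22 °C replicate 1 (0.564%), KO at 30 °C replicates 1 and 2 (0.103% and 0.348%) and WT at 30 °C replicate 2 (0.230%). The log2 ratio of the clock genes Dbp and Arntl lay between -3.12 and -2.03 in KO at 22 °C and between -0.75 and 1.69 in WT at 22 °C, without overlap. At 30 °C the ratio lay between -1.29 and 0.25 in KO and between -0.53 and 0.39 in WT. It thus did not overlap between temperatures in KO either, where clock phase and temperature cannot be told apart. The other 12 libraries held up to 0.0764% of counts on muscle markers, and Myh2, Myh7, Tnnt3, Tnni2 and Tnnc2 were at 0 in at least 1 library.

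Per kilobase of merged exon length, the cytosolic members had the higher median level. In WT at 30 °C their level had a median of 9.48 CPM per kb and ranged from 3.51 (Cars, the cysteine enzyme) to 34.1 (Gars, the glycine enzyme), with Dars, the aspartate enzyme, second at 20.8. The mitochondrial members had a median of 6.00 CPM per kb and ranged from 0.762 (Mars2, the methionine enzyme) to 18.01 (Iars2, the isoleucine enzyme), with Hars2 second at 11.1 and Rars2 at 11.1. At 30 °C Cars2 was 13th of the 16 mitochondrial members in WT at 2.15 CPM per kb, and it reached 9.33 in KO and 6.61 in WT at 22 °C.

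The summed level of the 16 mitochondrial members was 829 ± 86.5 CPM in KO and 951 ± 82.4 CPM in WT at 22 °C, against 594 ± 17.9 CPM in KO and 587 ± 19.6 CPM in WT at 30 °C (SD, n = 4 each). In both genotypes every 22 °C library lay above every 30 °C library, and at 22 °C the KO range (705 to 908) overlapped the WT range (864 to 1024). The 20 cytosolic members summed to 1316 ± 5.18 CPM in KO and 1461 ± 136 CPM in WT at 22 °C, against 1229 ± 26.3 CPM in KO and 1177 ± 26.3 CPM in WT at 30 °C. The ratio of the mitochondrial to the cytosolic sum was 0.630 ± 0.0655 in KO and 0.654 ± 0.0711 in WT at 22 °C, against 0.483 ± 0.0212 in KO and 0.499 ± 0.0158 in WT at 30 °C. At 22 °C the cytosolic sums of the KO libraries (1313 to 1323) lay inside the WT range (1278 to 1579). As a share of raw counts, without TMM factors, the cytosolic members overlapped between temperatures in both genotypes. Their share was 0.125% to 0.131% in KO and 0.119% to 0.143% in WT at 22 °C. At 30 °C it was 0.126% to 0.131% in KO and 0.124% to 0.132% in WT. The mitochondrial share did not overlap between temperatures in either genotype.

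**Figure D1:**
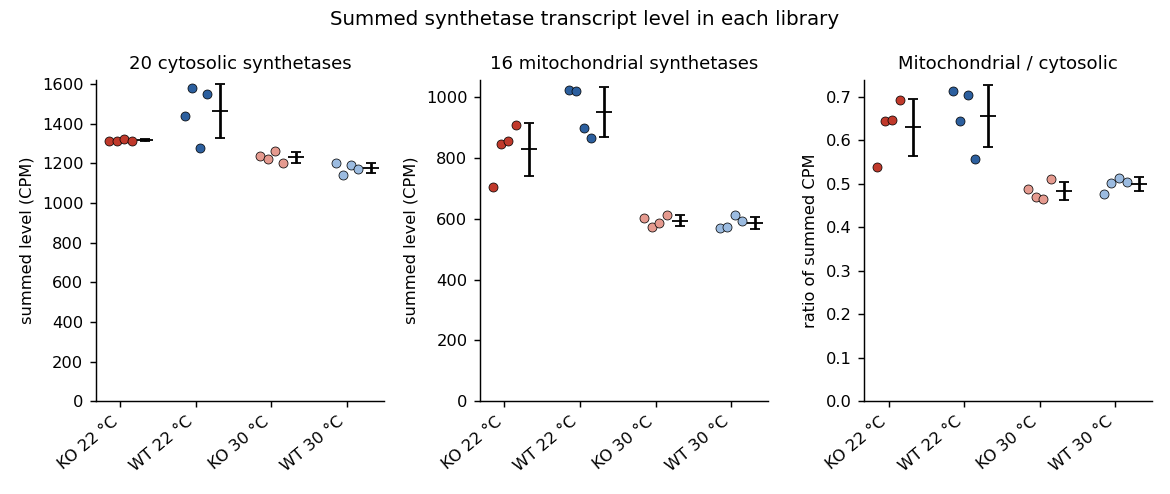
Summed CPM of the 20 cytosolic and the 16 mitochondrial synthetase genes and the ratio of the sums, with 1 point per library and bars for the mean ± SD of 4 libraries. The mitochondrial sum averaged 829 CPM in KO and 951 CPM in WT at 22 °C and 594 CPM in KO and 587 CPM in WT at 30 °C.

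The comparison of 22 °C with 30 °C in WT asked how the synthetases follow a cooler environment. The mitochondrial set was broadly higher at 22 °C, with 13 of 16 members called higher and 0 lower. The cytosolic set was higher to a smaller extent, with 11 of 20 called higher and 1, Dars, lower. Over all tested genes 38.3% were called in either direction, 20.5% higher and 17.8% lower, so the share of mitochondrial members called higher (81.2%) and of cytosolic ones (55%) both lay above the background. The median log2 fold change was 0.63 for the mitochondrial members (range -0.15 to 1.62) and 0.25 for the cytosolic ones (range -0.28 to 0.80), against -0.03 over all tested genes. In KO the same comparison called 10 of 16 mitochondrial members higher and 0 lower, and 3 of 20 cytosolic members higher and 1 lower, again Dars, where 26.7% of all genes were called, 13.8% higher and 13% lower. The KO medians were 0.38 and 0.08, against 0.02 over all tested genes.

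Among the mitochondrial members Cars2, the cysteine enzyme, stood out. Its level was 53.0, 73.0, 65.3 and 78.7 CPM in KO and 60.0, 48.7, 40.6 and 42.0 CPM in WT at 22 °C, against 18.2, 16.1, 16.99 and 17.3 CPM in KO and 16.5, 14.4, 16.8 and 14.6 CPM in WT at 30 °C. Every library at 22 °C was above every library at 30 °C, by more than the whole spread at 30 °C. Cars2 rose 3.94-fold in KO, or 1.98 ± 0.13 on the log2 scale (SE, adjusted p = 5.6e-07), and 3.07-fold in WT, or 1.62 ± 0.13 (SE, adjusted p = 5.38e-07), in edgeR's quasi-likelihood test with Benjamini-Hochberg adjustment over all tested genes. Both calls held under all alternative settings.

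Iars2 was the most abundant mitochondrial member per length. It had 197, 236, 235 and 248 CPM in KO and 303, 268, 278 and 257 CPM in WT at 22 °C, against 156, 149, 146 and 157 CPM in KO and 151.1, 160.3, 169 and 159.6 CPM in WT at 30 °C. The 22 °C libraries lay above the 30 °C libraries in both genotypes, and at 22 °C the KO libraries lay below the WT libraries without overlap. Its difference with temperature was 0.59 on the log2 scale (SE 0.08, adjusted p = 0.000113) in KO and 0.79 (SE 0.08, adjusted p = 3.15e-06) in WT.

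Fars2 and Yars2, the mitochondrial enzymes for phenylalanine and tyrosine, rose in both genotypes. Fars2 had 62.0, 78.2, 74.7 and 81.2 CPM in KO and 97.2, 115, 91.0 and 75.4 CPM in WT at 22 °C, against 52.3, 48.1, 53.5 and 52.0 CPM in KO and 50.5, 52.9, 46.4 and 49.3 CPM in WT at 30 °C. Yars2 had 35.1, 40.03, 36.6 and 41.2 CPM in KO and 47.1, 50.9, 41.1 and 38.2 CPM in WT at 22 °C, against 25.9, 25.9, 24.6 and 27.2 CPM in KO and 25.3, 23.9, 26.8 and 24.01 CPM in WT at 30 °C. For both genes the temperatures did not overlap in either genotype, and KO and WT overlapped at 22 °C. The log2 fold change of Fars2 was 0.52 (SE 0.11, adjusted p = 0.00307) in KO and 0.93 (SE 0.11, adjusted p = 1.62e-05) in WT, and that of Yars2 was 0.56 (SE 0.09, adjusted p = 0.000439) in KO and 0.83 (SE 0.09, adjusted p = 6.86e-06) in WT.

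Aars2, the alanine enzyme of mitochondria, and Wars2, the tryptophan one, also rose in both genotypes. Aars2 had 34.9, 43.0, 42.2 and 48.2 CPM in KO and 60.0, 67.0, 53.2 and 50.7 CPM in WT at 22 °C, against 33.3, 30.7, 31.6 and 33.1 CPM in KO and 28.6, 33.5, 33.3 and 32.4 CPM in WT at 30 °C. Wars2 had 10.3, 13.7, 14.1 and 15.8 CPM in KO and 15.2, 14.9, 13.8 and 19.0 CPM in WT at 22 °C, against 7.42, 9.92, 7.93 and 8.88 CPM in KO and 8.38, 9.11, 10.54 and 9.31 CPM in WT at 30 °C. Within each genotype the temperatures did not overlap, although the lowest KO library of Aars2 at 22 °C was close to the 30 °C range. The log2 fold change of Aars2 was 0.39 (SE 0.10, adjusted p = 0.0123) in KO and 0.85 (SE 0.10, adjusted p = 1.76e-05) in WT, and that of Wars2 was 0.66 (SE 0.14, adjusted p = 0.00332) in KO and 0.75 (SE 0.14, adjusted p = 0.000614) in WT. In KO the Aars2 call was lost without KO replicate 2 (adjusted p = 0.05045) or replicate 4 (adjusted p = 0.0775) at 22 °C and with upper-quartile factors (adjusted p = 0.0639), and that of Wars2 with the clock covariate (adjusted p = 0.0781).

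Of the other mitochondrial members, Sars2, Nars2, Tars2 and Hars2, for serine, asparagine, threonine and histidine, rose in both genotypes, by 0.23 (Hars2) to 0.60 (Sars2) in KO and by 0.37 (Hars2) to 0.83 (Sars2) in WT on the log2 scale. In KO the Hars2 and Tars2 calls were each lost in 10 of the 16 fits that left out 1 library, with adjusted p up to 0.146 and 0.121. The Hars2 call held without WT replicate 2 at 30 °C, KO replicate 1 at 22 °C or any WT library at 22 °C, and the Tars2 call without KO replicate 1 at 30 °C, KO replicate 1 at 22 °C or any WT library at 22 °C. Lars2 and Vars2, for leucine and valine, rose in WT by 0.60 and 0.41, with values of 0.30 and 0.17 that did not pass in KO, where both were called without KO replicate 1 at 22 °C (0.40 and 0.25). Rars2, the arginine enzyme, rose in WT by 0.36 and had -0.02 in KO. Ears2 had 0.37 in KO and 0.36 in WT, Mars2 had 0.13 in KO and -0.15 in WT, and Pars2, for proline, had -0.21 in KO and 0.10 in WT, none past the test, although Ears2 was called in both genotypes without WT replicate 3 at 22 °C (0.37 in KO and 0.48 in WT). None of these genotype contrasts in the mitochondrial temperature responses passed the test of the difference, which is given further below.

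**Figure D2:**
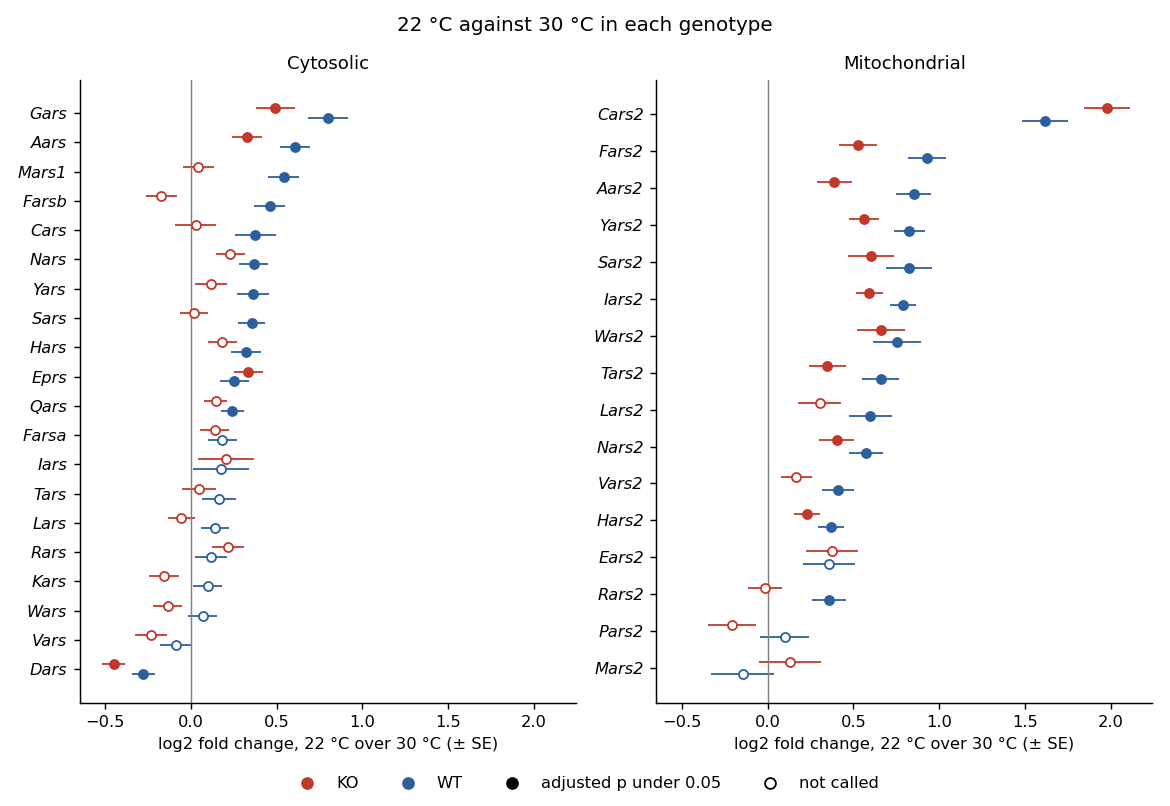
Log2 fold change of 22 °C over 30 °C with its SE for each synthetase gene in KO and WT, in the order of the WT value within each class, with filled points for adjusted p under 0.05. Of the mitochondrial genes 10 are filled in KO and 13 in WT, and of the cytosolic genes 4 in KO and 12 in WT, with Cars2 at 1.98 in KO and 1.62 in WT.

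Among the cytosolic members Gars, which also supplies the mitochondrial glycine enzyme, had the largest value in both genotypes. Gars had 131, 166, 181 and 181 CPM in KO and 195, 219, 149 and 177 CPM in WT at 22 °C, against 116, 110.3, 124 and 117 CPM in KO and 107.5, 100.6, 114 and 103 CPM in WT at 30 °C. The temperatures did not overlap within a genotype, and the genotypes overlapped at 22 °C. Its log2 fold change was 0.49 (SE 0.12, adjusted p = 0.00589) in KO and 0.80 (SE 0.12, adjusted p = 8.18e-05) in WT. Kars, the other member with both forms and the lysine enzyme, had 75.7, 69.04, 73.1 and 75.0 CPM in KO and 77.4, 99.6, 72.0 and 80.5 CPM in WT at 22 °C, against 83.9, 76.4, 86.8 and 79.4 CPM in KO and 79.6, 78.4, 74.2 and 75.7 CPM in WT at 30 °C. Its KO libraries were all lower at 22 °C while its WT libraries overlapped, and neither value passed (-0.16, adjusted p = 0.190, in KO and 0.10, adjusted p = 0.391, in WT), with a lower call in KO without WT replicate 2 at 22 °C (adjusted p = 0.0452). Kars has an annotated pseudogene, Kars-ps1, that could share reads with it.

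Aars and Eprs, the alanine enzyme and the joint glutamate and proline enzyme, rose in both genotypes. Aars had 121, 114, 108 and 105 CPM in KO and 130.1, 135, 107 and 146 CPM in WT at 22 °C, against 87.9, 92.6, 91.7 and 85.3 CPM in KO and 83.4, 80.4, 93.5 and 82.8 CPM in WT at 30 °C, with no overlap between temperatures. Eprs had 112, 112, 112 and 124 CPM in KO and 119, 114, 92.7 and 118 CPM in WT at 22 °C, against 88.7, 96.5, 88.7 and 90.4 CPM in KO and 85.8, 92.8, 103 and 90.9 CPM in WT at 30 °C. The Eprs libraries overlapped between temperatures in WT and did not in KO. The log2 fold change of Aars was 0.33 (SE 0.09, adjusted p = 0.0121) in KO and 0.61 (SE 0.09, adjusted p = 7.41e-05) in WT, and that of Eprs was 0.33 (SE 0.08, adjusted p = 0.00879) in KO and 0.25 (SE 0.08, adjusted p = 0.0256) in WT. The WT call of Eprs was lost without the first, second or last WT library at 30 °C, and likewise without the first or last WT library at 22 °C (adjusted p up to 0.0883). In KO the calls of Aars and Eprs were lost without the muscle-bearing libraries, with values of 0.30 and 0.37 (adjusted p = 0.121 and 0.0649). They were also lost with the clock covariate, with values of 0.22 and 0.32 (adjusted p = 0.253 and 0.0922).

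Dars was the only member called lower at 22 °C, and it fell in both genotypes under all alternatives. It had 71.2, 76.3, 72.1 and 70.2 CPM in KO and 72.6, 68.6, 74.5 and 83.9 CPM in WT at 22 °C, against 101.4, 97.2, 102 and 96.2 CPM in KO and 95.3, 90.9, 86.2 and 90.8 CPM in WT at 30 °C. The libraries of the 2 temperatures did not overlap in either genotype. Dars changed by -0.45 on the log2 scale (SE 0.07, adjusted p = 0.000248) in KO and -0.28 (SE 0.07, adjusted p = 0.00415) in WT.

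The cytosolic members Hars, Nars, Qars and Yars, for histidine, asparagine, glutamine and tyrosine, were called higher in WT, by 0.24 (Qars) to 0.37 (Nars), with KO values of 0.12 (Yars) to 0.23 (Nars) that did not pass. Nars was called in KO without WT replicate 2, 3 or 4 or KO replicate 4 at 22 °C (0.23 to 0.26). Farsb, Mars1, Cars and Sars, described with the genotype comparison below, were also called higher in WT and in KO ranged from -0.17 (Farsb) to 0.04 (Mars1), and the WT call of Cars was lost without WT replicate 3 at 30 °C (adjusted p = 0.0536) or WT replicate 4 at 22 °C (adjusted p = 0.0741). Farsa, Iars, Kars, Lars, Rars, Tars, Vars and Wars passed in neither genotype, and the valine enzyme Vars, with no overlap between the KO libraries, was lower at 22 °C without passing (-0.23, adjusted p = 0.0781), but passed without WT replicate 1 (adjusted p = 0.0379) or 2 (adjusted p = 0.0385) at 22 °C. Farsa passed in WT without WT replicate 3 at 30 °C (0.25). In KO 5 cytosolic members were higher and 3 lower at 22 °C without overlap, and 10 mitochondrial members were higher, where 17.7% of all tested genes were higher and 15% lower without overlap, so the 3 of 20 lower cytosolic members do not exceed the background. In WT the counts were 10 higher and 1 lower for the cytosolic and 13 higher for the mitochondrial members, where 18.4% of all tested genes were higher and 16.9% lower. Of the 5 members with a printed promoter match, Aars and Gars rose in both genotypes, Yars in WT, and Iars (0.21 in KO and 0.18 in WT) and Tars (0.05 in KO and 0.17 in WT) did not pass.

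The 8 cytosolic enzymes of the multi-synthetase complex (Rars, Dars, Qars, Eprs, Iars, Lars, Kars and Mars1), a grouping taken from textbook knowledge, are set beside the 12 outside it, with no test of the difference. In WT 3 of the 8 rose and 1 fell (median 0.16), and outside it 8 of 12 rose and 0 fell (median 0.36). In KO the counts were 1 higher and 1 lower of 8 in the complex and 2 higher and 0 lower of 12 outside it. Of all tested genes 20.5% were higher and 17.8% lower in WT, and 13.8% and 13% in KO. The KO counts of both parts lay near that background. The 3 scaffold genes Aimp1, Aimp2 and Eef1e1 were not called by edgeR in any of the 5 comparisons, with 0 at an unadjusted p under 0.05 in each.

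Marker genes of cell types also differed between the temperatures. In WT 10 of 12 brown adipocyte markers were higher and 0 lower at 22 °C, and 6 of 8 macrophage and 5 of 6 endothelial markers were lower and 0 higher. In KO 7 of 12 brown adipocyte markers were higher, and 6 of 8 macrophage and 3 of 6 endothelial markers were lower. Over all tested genes 20.5% were higher and 17.8% lower in WT, and 13.8% and 13% in KO. Lymphocyte markers, 7 of 8 tested, had 0 calls in KO and 1 lower in WT, and none of 12 muscle markers was called, with 0 in KO and 1 in WT at an unadjusted p under 0.05. The muscle markers still had a median of -2.71 in WT, with all 12 negative, and of 0.58 in KO, with 11 positive and 1 negative. The summed brown adipocyte markers ranged from 20475 to 25311 CPM in KO and from 19923 to 33421 CPM in WT at 22 °C, against 12943 to 15083 CPM in KO and 12730 to 14030 CPM in WT at 30 °C. The summed macrophage markers ranged from 88.2 to 110.4 CPM in KO and from 75.2 to 194 CPM in WT at 22 °C, against 173 to 208 CPM in KO and 160.4 to 238 CPM in WT at 30 °C. The endothelial sum ranged from 803 to 1055 CPM in KO and from 730 to 911 CPM in WT at 22 °C, against 1198 to 1336 CPM in KO and 1145 to 1214 CPM in WT at 30 °C. No marker of these 3 lists was at 0 in any library, and the part of cell composition in the synthetase differences was not tested. Of 10 interferon response genes 2 were lower in KO and 7 in WT at 22 °C, while Wars, a cytosolic synthetase known to be induced by interferon, had 0.07 in WT and -0.13 in KO and did not pass.

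The cytosolic counts depended on the scaling. With upper-quartile factors the median over all genes moved to -0.08 in KO and -0.13 in WT, and the cytosolic counts became 3 higher and 4 lower in KO, with Farsb, Kars and Vars added to the lower calls, and 7 higher and 1 lower in WT. The mitochondrial counts were then 7 higher in KO and 12 higher in WT with 0 lower. Calls lost with that scaling were those of Aars2, Hars2 and Tars2 in KO and of Cars, Eprs, Hars, Qars and Rars2 in WT. Over all genes that scaling called 8.36% higher and 18% lower in KO, and 15.6% higher and 24% lower in WT. Without the muscle-bearing libraries the KO counts were 1 higher and 1 lower cytosolic and 8 higher mitochondrial members, where 6.63% of all genes were higher and 8.06% lower. The WT counts were then 8 higher and 1 lower cytosolic and 13 higher mitochondrial members, where 17.1% of all genes were higher and 15.8% lower. Calls lost without these libraries were those of Aars, Eprs, Hars2 and Tars2 in KO and of Cars, Eprs and Qars in WT. Their log2 fold changes were then 0.30, 0.37, 0.27 and 0.38 in KO and 0.35, 0.25 and 0.23 in WT. With all libraries they were 0.33, 0.33, 0.23 and 0.35 in KO and 0.37, 0.25 and 0.24 in WT.

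The comparison of KO with WT at 22 °C asked whether synthetase transcripts differ in the cooler environment when Akt2 is deleted in brown adipocytes. It shares its 22 °C libraries with the temperature comparisons. Lower values in KO were the more common direction, with 4 of 20 cytosolic members (Cars, Farsb, Mars1 and Sars) and 4 of 16 mitochondrial members (Aars2, Fars2, Iars2 and Rars2) called lower. Cars2 alone was called higher. Over all tested genes 17.6% were called, 7.52% higher and 10.1% lower, so the 22.2% of members called lower lay above a background of 10.1%. The median log2 fold change was -0.12 for the cytosolic and -0.22 for the mitochondrial members, against 0.02 over all tested genes, and 29 of 36 members had a negative value against 47.6% of all genes.

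Mars1, Farsb and Sars carry methionine, phenylalanine (the beta subunit of the cytosolic enzyme) and serine. Mars1 had 62.8, 74.2, 79.3 and 71.1 CPM in KO and 87.0, 112, 85.4 and 103 CPM in WT at 22 °C, against 71.4, 69.5, 68.7 and 69.4 CPM in KO and 67.6, 62.9, 68.4 and 67.5 CPM in WT at 30 °C. Farsb had 50.2, 45.5, 46.6 and 52.3 CPM in KO and 54.4, 69.8, 65.6 and 69.8 CPM in WT at 22 °C, against 53.5, 53.9, 62.9 and 49.4 CPM in KO and 45.8, 45.6, 47.5 and 49.9 CPM in WT at 30 °C. Sars had 90.7, 92.1, 92.9 and 89.5 CPM in KO and 118, 137, 99.7 and 119 CPM in WT at 22 °C, against 94.6, 88.0, 87.3 and 90.7 CPM in KO and 97.2, 87.0, 92.5 and 94.4 CPM in WT at 30 °C. For all 3 genes the KO and WT libraries did not overlap at 22 °C, and the WT libraries were high at 22 °C while the KO libraries at 22 °C overlapped those at 30 °C. Of the 36 members 6 were lower and 1 higher in KO at 22 °C without overlap. The share of all tested genes without overlap was not computed for that comparison, so these counts have no background. The log2 fold change of KO over WT at 22 °C was -0.43 for Mars1 (SE 0.09, adjusted p = 0.00500), -0.41 for Farsb (SE 0.09, adjusted p = 0.00683) and -0.38 for Sars (SE 0.08, adjusted p = 0.0057). These 3 calls and that of Aars2 held whichever library was left out.

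Aars2 and Iars2, whose values stand above, were lower in KO at 22 °C without overlap, with log2 fold changes of -0.46 (SE 0.10, adjusted p = 0.00777) and -0.27 (SE 0.08, adjusted p = 0.0262). Fars2 was lower by the test (-0.35, SE 0.11, adjusted p = 0.0372) with overlapping libraries. Rars2 had 26.3, 32.1, 37.8 and 31.0 CPM in KO and 37.4, 43.7, 37.0 and 39.2 CPM in WT at 22 °C, against 31.9, 30.4, 35.0 and 31.6 CPM in KO and 32.6, 27.8, 31.9 and 30.5 CPM in WT at 30 °C. Its KO replicate 3 at 22 °C reached the WT range, and its log2 fold change of KO over WT was -0.31 (SE 0.10, adjusted p = 0.0433), a call lost in 13 of 16 fits that left out 1 library (adjusted p up to 0.111). The Fars2 call was lost in 8 of 16 such fits (adjusted p up to 0.107), and the Iars2 call without WT replicate 1 (adjusted p = 0.0688) or KO replicate 1 (adjusted p = 0.0613) at 22 °C. Without KO replicate 1 or WT replicate 1 at 22 °C, 1 mitochondrial member was called lower in place of 4. Leaving out the first or last WT library at 30 °C, or replicate 2 of either genotype at 22 °C, left 2 such calls.

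The cysteine enzymes went opposite ways. Cars, the cytosolic one, had 27.5, 24.2, 19.2 and 21.3 CPM in KO and 26.7, 30.2, 26.4 and 36.5 CPM in WT at 22 °C, against 24.5, 22.8, 21.7 and 21.5 CPM in KO and 25.7, 22.0, 21.1 and 23.6 CPM in WT at 30 °C. KO replicate 1 lay within the WT range at 22 °C, and the log2 fold change of KO over WT was -0.38 (SE 0.12, adjusted p = 0.0406). Cars2 was higher in KO at 22 °C by 0.50 (SE 0.13, adjusted p = 0.0161), with KO replicate 1 below WT replicate 1. The Cars call was lost without any of 6 libraries (KO replicate 2 or 3 at 30 °C, WT replicate 2 or 4 at 22 °C, KO replicate 3 or 4 at 22 °C, adjusted p up to 0.109), and that of Cars2 without KO replicate 2 (adjusted p = 0.0640) or 4 (adjusted p = 0.0744) at 22 °C. At 22 °C the KO libraries of Mars2 all lay above those of WT without passing the test (0.48, adjusted p = 0.0788), and those of Vars2 all lay below without passing it (-0.25, adjusted p = 0.0685). Both, and Yars2 (-0.28), were called without WT replicate 4 at 22 °C, and Aars (-0.29) and Lars (-0.27) without WT replicate 3.

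**Figure D3:**
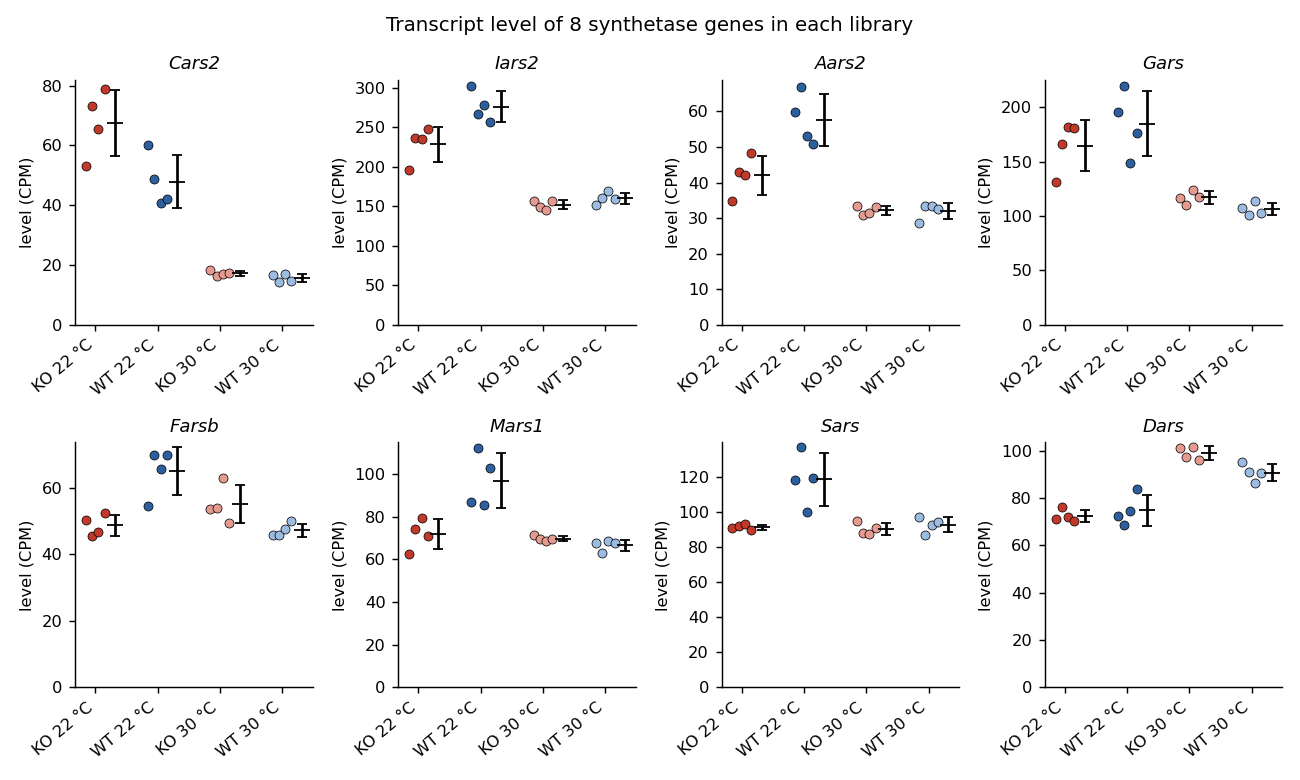
CPM of 8 synthetase genes in each library, with bars for the mean ± SD of 4 libraries per group. Cars2 averaged 67.5 CPM in KO and 47.8 CPM in WT at 22 °C, whereas Farsb averaged 48.7 CPM in KO and 64.9 CPM in WT at 22 °C, and Dars was lower at 22 °C in both genotypes.

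The genotype calls at 22 °C depended on the fit. Fitted on the 2 groups alone, 0 of the 9 members were called where 595 of all genes were (1.26% higher and 2.96% lower). Their log2 fold changes hardly moved in that fit, from -0.46 (Aars2) to 0.50 (Cars2), with adjusted p from 0.0624 (Farsb) to 0.164 (Fars2). With the log2 ratio of Dbp and Arntl as a covariate 0 were called where 110 genes were (0.156% higher and 0.624% lower). With that covariate the median of the mitochondrial members was 0.09 and that of the cytosolic ones -0.24. Since the ratio does not overlap between KO and WT at 22 °C, clock phase and genotype cannot be told apart there. The same holds for clock phase and temperature within KO, so fits with that covariate cannot separate them in either comparison. Without the muscle-bearing libraries 4 cytosolic members were lower and Cars2 was the only mitochondrial member called, where 3.79% of all genes were higher and 6.16% lower. The mitochondrial calls lost there had log2 fold changes of -0.39 (Aars2), -0.29 (Fars2), -0.21 (Iars2) and -0.23 (Rars2). Of the cell type markers, 3 of 6 endothelial, 1 of 10 interferon response and 1 of 12 brown adipocyte markers were higher in KO at 22 °C, 2 of 12 brown adipocyte markers were lower, and macrophage, lymphocyte and muscle markers had 0 calls. All 12 muscle markers still had a positive value (median 3.75), with 4 at an unadjusted p under 0.05. KO replicate 1 held 0.564% of its counts on them, so muscle content was not equal between these libraries. Over all tested genes 7.52% were higher and 10.1% lower. The part of the cell types in the synthetase differences was not tested.

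At 30 °C no synthetase differed between the genotypes by the test, as 0 of 36 members were called by edgeR, by DESeq2 or by limma-voom. Of all tested genes edgeR called 0.0425%, 6 genes (0.0284% higher and 0.0142% lower), DESeq2 called 0.0709% higher and 0.0851% lower, and limma-voom 0.163% higher and 0.149% lower, so 0 members lies near the background. The median log2 fold change of KO over WT was 0.07 for the cytosolic members (range -0.04 to 0.22) and 0.05 for the mitochondrial ones (range -0.13 to 0.21), against 0.02 over all genes. A positive value was found for 27 of 36 members, against 54.1% of all genes. At an unadjusted p under 0.05 there was 1 member, Farsb, named after its value was seen, at 0.22 (adjusted p = 0.998). For Dars and Mars1 all KO libraries lay above all WT libraries at 30 °C (0.13 and 0.07, adjusted p = 0.998 each), as for 3.36% of all tested genes.

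**Figure D4:**
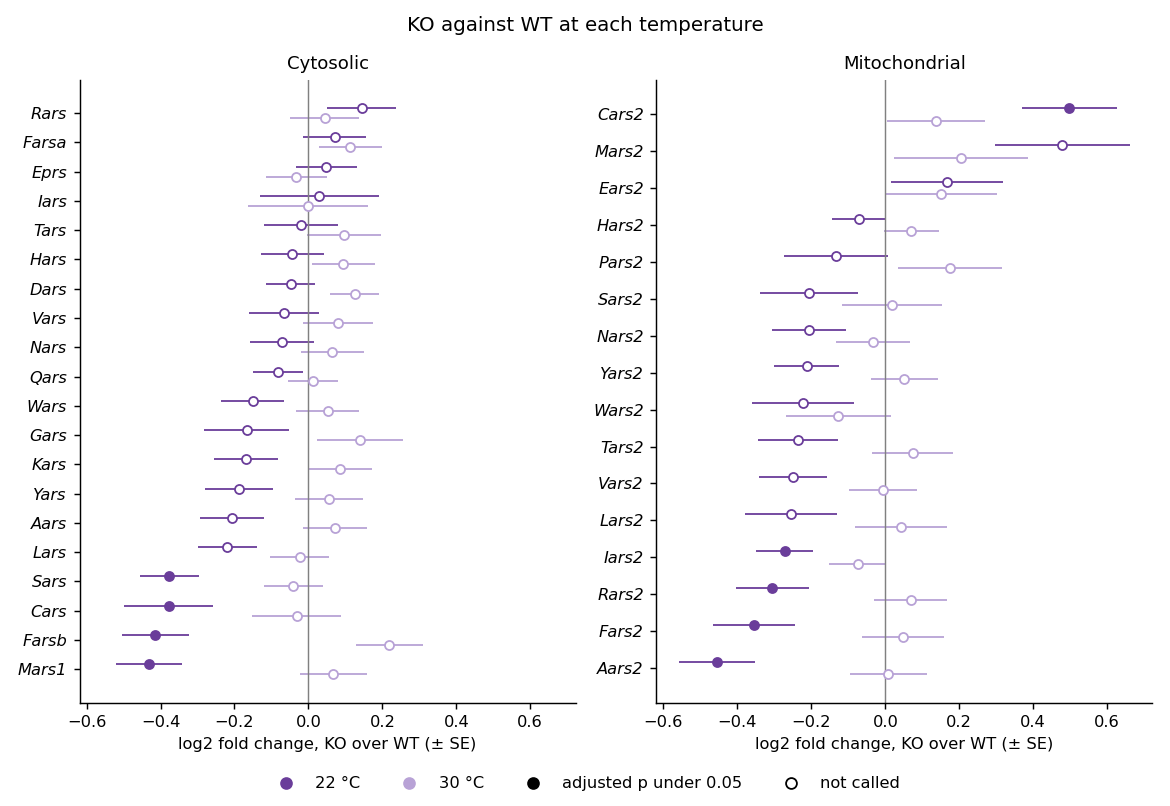
Log2 fold change of KO over WT with its SE for each synthetase gene at 22 °C and 30 °C, in the order of the 22 °C value within each class, with filled points for adjusted p under 0.05. At 22 °C 9 genes are filled, from Aars2 at -0.46 to Cars2 at 0.50, and at 30 °C none is.

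The difference between the KO effects at 22 °C and at 30 °C tests whether the temperature response differed between genotypes. Farsb and Mars1 passed, both with the lower temperature value in KO, among 3.14% of all genes called (0.752% higher and 2.39% lower). The difference was -0.63 for Farsb (SE 0.13, adjusted p = 0.0186), where KO at 22 °C against 30 °C had -0.17 and WT had 0.46, and -0.50 for Mars1 (SE 0.13, adjusted p = 0.0467), where KO had 0.04 and WT 0.54. No mitochondrial member passed in edgeR, with 3 at an unadjusted p under 0.05, 1 called by DESeq2 (Aars2) and 0 by limma-voom. Without WT replicate 4 at 22 °C Aars2 (-0.52) and Fars2 (-0.50) were called, and without WT replicate 3 Sars (-0.41). The nearest were Aars2 at -0.46 (adjusted p = 0.0912), Rars2 at -0.37 (adjusted p = 0.144) and Fars2 at -0.40 (adjusted p = 0.159), and Cars2 had 0.36 (adjusted p = 0.277). The difference was negative for 30 of 36 members, with medians of -0.18 for the cytosolic and -0.23 for the mitochondrial members, against 49.4% negative and a median of 0.01 over all tested genes.

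The Farsb difference stayed past the threshold whichever library was left out (adjusted p up to 0.0460). Its call was lost without the muscle-bearing libraries (-0.66, adjusted p = 0.141) and with the clock covariate (-0.73, adjusted p = 0.205), although the value was no smaller in size. The call of the Mars1 difference was lost in 13 of 16 fits that left out 1 library (adjusted p up to 0.106), namely all but those without WT replicate 1, 3 or 4 at 22 °C. It was also lost with upper-quartile factors (adjusted p = 0.0619), with no filter (0.0823), with the clock covariate (0.628), with the replicate block (0.0815) and when the muscle-bearing libraries were dropped (0.293).

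Some members share genome space with other genes. The strand setting of the counting is not given in the sources used here, and reads where a member and an opposite-strand gene overlap could belong to either. Cars2 (ENSMUSG00000056228, chr8:11513977-11550783, minus strand) overlaps 422 exon bases of Naxd, a metabolite repair gene, which had a log2 fold change with temperature of 0.33 (adjusted p = 0.0658) in KO and 0.60 (adjusted p = 0.00183) in WT. Iars2 (chr1:185284726-185329396, minus strand) overlaps 2034 exon bases of Rab3gap2, which had 0.38 (adjusted p = 0.0203) in KO and 0.02 in WT. Mars1 (chr10:127296221-127311786, minus strand) overlaps 68 exon bases of Ddit3, which encodes the ATF4 partner CHOP and was lower at 22 °C in both genotypes (-0.58 in each). Farsb (chr1:78417975-78488897, minus strand) overlaps 248 exon bases of Sgpp2, which averaged 1.62 reads a library. Aars overlaps 1326 exon bases of Exosc6 on the same strand, and Exosc6 is not among the genes counted. Reads of Exosc6 there could be counted under Aars whatever the strand setting, and their part in the Aars values was not tested.

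Starts within 1 kb of another gene's start were found for 9 members. Sars2 and Mrps12, a mitochondrial ribosome gene, start 172 bases apart on opposite strands, and Mrps12 was also higher at 22 °C in WT (0.73, adjusted p = 0.00115). Rars2 and Orc3, an origin recognition gene, start 13 bases apart, and Orc3 was higher in WT by 0.35 (adjusted p = 0.00444), beside 0.36 for Rars2. Fars2 and Lyrm4, an iron-sulfur cluster gene, start 114 bases apart, and Lyrm4 was higher in WT by 0.39 (adjusted p = 0.0291). Hars and Hars2 start 197 bases apart with 195 shared exon bases, and both rose in WT (0.32 and 0.37). Terf2ip beside Kars, S100pbp beside Yars, Wdr25 beside Wars and Ubfd1 beside Ears2 did not pass in WT, and Ubfd1 was higher at 22 °C in KO (0.25).

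Counts of the related lists stand beside 13.8% of all tested genes higher and 13% lower at 22 °C in KO, and 20.5% and 17.8% in WT. For KO against WT at 22 °C these shares were 7.52% higher and 10.1% lower. Of 13 mitochondrial translation factors 6 were higher and 0 lower at 22 °C in KO, and 11 and 0 in WT (median 0.66). They include Gfm1, an elongation factor, at 0.49 in KO and 0.96 in WT, Gfm2, which recycles ribosomes, at 0.25 in KO and 0.66 in WT, and Mtif2, an initiation factor, at 0.32 in KO and 0.63 in WT. At 22 °C KO was lower than WT for 5 of the 13, among them Lrpprc (-0.44), which stabilises mitochondrial mRNA, Gfm1 (-0.42), Guf1 (-0.42) and Gfm2 (-0.32). The difference between the KO effects passed for the same 4 named genes, at -0.50 for Lrpprc, -0.53 for Guf1, -0.47 for Gfm1 and -0.42 for Gfm2 (adjusted p 0.0210 to 0.0395).

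Of 15 genes of mitochondrial tRNA processing and modification 7 were higher and 0 lower at 22 °C in KO, and 9 and 0 in WT. Mto1, which modifies the wobble base of mitochondrial tRNAs, had 0.58 in KO and 0.97 in WT, and Elac2, which trims tRNA 3′ ends, had 0.46 in KO and 0.62 in WT. At 22 °C KO was lower than WT for Osgepl1 (-0.43) and Mto1 (-0.39) and higher for Hsd17b10 (0.33), a subunit of mitochondrial RNase P. Of 12 synthetase-like genes outside the members 7 were higher and 0 lower in WT, among them Prorsd1 (0.71) and Gatb of the amidating enzyme (0.55), while in KO Sepsecs was higher (0.61) and Dtd1 lower (-0.69). At 22 °C KO was lower than WT for 4 of them, among them Gatb (-0.45), Pstk (-0.48) and Prorsd1 (-0.38), and the difference between the KO effects passed for Qrsl1 (-0.53). The 6 cytosolic elongation factors had 1 call, Eef2k, lower in WT at 22 °C (-0.59).

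The ATF4 pathway did not move in 1 direction. Of 25 tested members 10 were higher and 4 lower at 22 °C in KO, and 7 higher and 5 lower in WT. Over all tested genes 13.8% were higher and 13% lower in KO, and 20.5% and 17.8% in WT. The WT counts thus lay close to the background. In KO the higher calls, 38.5% of the 26 listed genes, lay above it, and the lower calls, 15.4%, lay close to it. Psph, the last enzyme of serine synthesis, had 0.71 in KO and 1.37 in WT, and Cebpg, a partner of ATF4, had 0.38 in KO and 0.71 in WT. Pck2, the mitochondrial phosphoenolpyruvate carboxykinase, had -1.62 in KO and -1.24 in WT. Slc3a2, a subunit of amino acid carriers, had 0.84 in KO and 0.44 in WT, and Eif4ebp1, a brake on translation initiation, rose in WT by 0.99. At 22 °C KO against WT had 3 higher and 3 lower, with Slc3a2 at 0.71, Psph at -0.66, Eif4ebp1 at -0.63 and Cebpg at -0.29. In that comparison 7.52% of all tested genes were higher and 10.1% lower. At 30 °C edgeR called 0 genes of these related lists between the genotypes, with 2 ATF4 pathway genes, 1 synthetase-like gene, 1 tRNA processing gene and 1 elongation factor gene at an unadjusted p under 0.05.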

How the data were processed

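The authors deposited unnormalised whole-number counts for each Ensembl gene in each library. The submitters' processing notes name edgeR 3.14.0, STAR 2.4.2a and FastQC 0.10.1, and the builds GRCm38 and mm10, without roles. Not given in the sources used here are the program that counted reads, its annotation and whether strand was used. A reference table gave symbols for 37607 of the 38924 identifiers, and exon lengths, coordinates and overlaps were taken from a GENCODE annotation of GRCm38.

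Counts of all 16 libraries entered 1 quasi-likelihood model in edgeR 4.0.16 (R 4.3.3) with a term per group, TMM factors and filterByExpr (minimum count 10), which left 14103 genes. The 5 comparisons were 22 °C against 30 °C in each genotype, KO against WT at each temperature, and the difference between the KO effects. A gene was called where its p, adjusted by Benjamini-Hochberg over all tested genes, was under 0.05. SE was taken as the size of the log2 fold change over the root of the F statistic. Library totals ranged from 12751528 to 23866743 reads, and the typical variation between libraries of a group beyond counting error was 22.5%. Counting error depends on the count of each gene and is larger where reads are few. No member had fewer than 84 reads in any library. Scripts were tested on simulated data.

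Tried as alternatives were upper-quartile or relative-log-expression scaling, fits without a filter or with a stricter one, limma-voom with quality weights (limma 3.58.1), DESeq2 1.42.0, the compared groups alone, the replicate number as a block and the log2 ratio of Dbp and Arntl as a clock covariate. Fits were also made without each library in turn and without the 4 in which muscle markers exceeded 0.1% of counts (called muscle-bearing).

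The members, lists and alternatives were chosen with earlier results of these data known. Values per library are given for Gars, Kars and called members with the 5 smallest p, or the largest or smallest change, of their class in a comparison, and up to 4 called genes per related list; exceptions are marked or named to account for all members. A gene of a related list is not reported here.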

Additional observations from a re-analysis of the deposited data

Results flagged for a closer look

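In 4 of 144 member groups of 4 libraries, 1 library stood apart from the other 3 by Dixon's test, where chance gives about 1 in 20 groups. Eprs had 123.6 CPM in KO at 22 °C replicate 4, against 111.6 to 112.5 CPM in the other KO libraries. Vars2 had 44.65 CPM in KO at 22 °C replicate 1, against 56.7 to 58.9 CPM in the others, and that library also had the highest share of skeletal muscle markers (0.564% of counts). Hars had 39.44 CPM in WT at 30 °C replicate 3, against 41.5 to 41.9 CPM in the others. Mars1 had 62.87 CPM in WT at 30 °C replicate 2, against 67.5 to 68.4 CPM in the others, and that library held 0.230% of its counts on muscle markers. The part of muscle RNA in these values was not tested.

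The KO effects at 22 °C and at 30 °C differed by -0.6329 on the log2 scale for Farsb and by -0.498 for Mars1, the 2 members whose test of that difference passed.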

How the results depend on the processing

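Every called member kept its direction in the temperature comparisons under all alternatives, single libraries left out included, and the calls of Cars2, Iars2, Yars2, Fars2, Sars2, Nars2, Gars and Dars held under all of them in both genotypes. The sign of Fars2 in KO against WT at 22 °C reversed after adding the clock covariate (0.17). The cause was not tested here or below. Counts of calls that moved by over 1.5 times were these. For cytosolic members in 22 °C against 30 °C in KO (4 called), the count was 7 with upper-quartile factors, 10 with limma-voom, 7 in the compared groups alone, 2 without the muscle-bearing libraries, 2 after adding the clock covariate and 4 to 7 when 1 library was left out. For KO against WT at 22 °C, the mitochondrial count (5) was 2 with no filter, 3 with limma-voom, 0 in the compared groups alone, 1 without the muscle-bearing libraries, 0 after adding the clock covariate and 2 to 7 when 1 library was left out, and the cytosolic count (4) was 0 in the compared groups alone and 0 after adding the clock covariate. For the difference between the KO effects, the cytosolic count (2) was 1 with upper-quartile factors, 1 with no filter, 0 without the muscle-bearing libraries, 0 after adding the clock covariate and 1 to 3 when 1 library was left out, and the mitochondrial count (0) was 1 with DESeq2 and 0 to 2 when 1 library was left out. Over all genes, that difference called 443, and 236 with no filter, 1076 with DESeq2, 1050 with limma-voom, 96 without the muscle-bearing libraries, 30 after adding the clock covariate and 147 to 1085 when 1 library was left out. KO against WT at 30 °C called 6 genes, and 22 with DESeq2, 44 with limma-voom, 1 without the muscle-bearing libraries and 2 to 7 when 1 library was left out. KO against WT at 22 °C called 2482 genes, and 595 in the compared groups alone, 1432 without the muscle-bearing libraries and 110 after adding the clock covariate. In KO, 22 °C against 30 °C called 3772 genes, and 6067 with limma-voom, 2115 without the muscle-bearing libraries and 2290 after adding the clock covariate.

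With the replicate number as a block (replicate block), 2 mitochondrial members were called in KO against WT at 22 °C, and the difference between the KO effects called 1 cytosolic member and 186 genes. Same-numbered libraries correlated between -0.54 and 0.478 in their deviations, under 0.1 for at least 1 number in each comparison. Between KO and WT at 30 °C, replicates 2 and 3 correlated best with their own number (0.426 and 0.316). Replicates 1 and 4 did not (-0.135 and -0.137). These correlations cannot settle whether same-numbered libraries are paired, and the labels give no meaning for the number.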

Other observations

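The regulators of protein synthesis around the synthetases moved unevenly. The counts stand beside 13.8% of all tested genes higher and 13% lower at 22 °C in KO, and 20.5% and 17.8% in WT. For KO against WT at 22 °C the shares were 7.52% higher and 10.1% lower. Of 18 TORC1 regulators 7 were higher and 3 lower at 22 °C in KO, and 7 higher and 2 lower in WT. Mtor, the kinase of the complex, rose in WT by 1.08 and was lower in KO than in WT at 22 °C by -0.80, and the difference between the KO effects passed for it (-0.71, adjusted p = 0.0228). At 22 °C KO was also lower than WT for Sesn1 (-0.60) and Eif4ebp1 (-0.63) and higher for Tsc1 (0.46), with 1 higher and 4 lower in all. Of 18 amino acid transporters 3 were higher and 1 lower at 22 °C in KO, and 1 higher and 6 lower in WT, and KO was higher than WT at 22 °C for Slc3a2 (0.71), Slc7a8 (1.92) and Slc7a1 (1.16). Of 7 genes for eIF2alpha kinases and the phosphatase 1 was higher at 22 °C in KO (Eif2ak1, 0.29), and 2 were higher and 1 lower in WT (Eif2ak1, 0.43, Eif2s1, 0.41, and Eif2ak2, -0.38).

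The genes for the tRNAs that the mitochondrial enzymes charge were called lower at 22 °C more than higher. Of 22 mitochondrially encoded tRNA genes 15 were tested, and 1 was higher and 6 lower at 22 °C in KO, and 1 higher and 7 lower in WT. Over all tested genes 13.8% were higher and 13% lower in KO, and 20.5% and 17.8% in WT. The phenylalanine tRNA gene mt-Tf averaged 0.687 ± 0.258 CPM in KO and 0.300 ± 0.184 CPM in WT at 22 °C, against 4.52 ± 0.997 CPM in KO and 3.44 ± 0.550 CPM in WT at 30 °C, and the methionine one, mt-Tm, averaged 19.97 ± 3.52 CPM in KO and 16.7 ± 9.58 CPM in WT at 22 °C, against 109.5 ± 32.4 CPM in KO and 137 ± 18.2 CPM in WT at 30 °C. The log2 fold changes were -2.71 in KO and -3.48 in WT for mt-Tf, and -2.46 in KO and -3.03 in WT for mt-Tm. The summed level of the tRNA genes ranged from 411 to 495 CPM in KO and from 201 to 545 CPM in WT at 22 °C, against 558 to 808 CPM in KO and 706 to 815 CPM in WT at 30 °C. Libraries of this kind capture short RNAs poorly and such reads can come from longer precursors or nuclear copies, which these counts cannot tell apart.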
